A study of Mus musculus with 7 samples.

Results

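The 6 mitochondrial protein-coding genes described here are mt-Co1, mt-Co2 and mt-Co3, which encode the catalytic core of cytochrome c oxidase (complex IV of the respiratory chain), mt-Atp6 and mt-Atp8, which encode membrane subunits of the ATP synthase (complex V), and mt-Cytb, which encodes cytochrome b of complex III. They were chosen by name, 6 of 55341 annotated gene symbols. All read values come from 1 table of distinct read sequences and their counts, and a read belonged to a gene when a best placement lay on it, either on that gene alone or equally well on nuclear genes. The series is RNA immunoprecipitation sequencing (RIP-seq), which sequences the RNA recovered together with a protein by its antibody. Its labels describe 7 libraries from nuclear lysates of untreated mouse embryonic stem cells grown with LIF. Of these, 5 were made with an antibody to Ezh2, the methyltransferase of Polycomb repressive complex PRC2, in cells of strain 129X(M.castaneusX129), 1 with the same antibody in Ezh2 null cells labelled M.musculus, and 1 with IgG in 129X(M.castaneusX129) cells. Among the 5, the labels call 1 a technical and 2 a biological replicate. The name of the table carries the tags WT and BR, which may stand for wild type and biological replicate but name no library. No label ties the table to any of the 7 libraries, so it was read as 1 pool without replicates. No comparison with IgG or with Ezh2 null cells was made, and no value below is an enrichment.

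Mammalian mitochondrial DNA is transcribed on both strands into long RNAs that cover many genes. Transfer RNAs lie between most of the coding genes, and their excision frees the individual RNAs. All 6 genes are annotated on the plus strand of the mitochondrial chromosome, so RNA of the opposite strand across them carries no open reading frame of theirs and is, in human cells, mostly degraded inside the organelle. Copies of mitochondrial DNA also lie in nuclear chromosomes, and short reads cannot always be told apart between the organelle and such copies.

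The 6 genes held 1348267 reads, which was 4.28% of the 31529044 searched reads, and 1236007 of these reads were antisense against 112260 sense. They made up 50.9% of the 2646839 reads of the 15 mitochondrial messenger and ribosomal RNA genes, and mt-Co1 alone gave 52.4% of the reads of the 6. The name of the table carries the tag noribo, which may mean that ribosomal reads were removed before deposit. How far this changed the 50.9% is not known. The highest antisense start position of a gene held from 8.09% of its antisense reads in mt-Co3 to 54.4% in mt-Co1. The stretches at these positions are given because a few such places carry much of what follows. Each is shown as the antisense RNA, 5′ to 3′, from the reference transcripts (GRCm38, mitochondrial chromosome, minus strand), with DNA letters. Capitals mark the bases that were matched, and the lower-case bases at the 3′ end are the 6 that the read began with and that were left out before matching.
mt-Co1, chrM:6655-6694: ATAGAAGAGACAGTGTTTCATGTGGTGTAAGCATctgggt
mt-Co2, chrM:7255-7294: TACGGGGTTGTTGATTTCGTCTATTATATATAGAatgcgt
mt-Co3, chrM:8687-8726: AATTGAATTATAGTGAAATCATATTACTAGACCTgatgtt
mt-Atp6, chrM:8212-8251: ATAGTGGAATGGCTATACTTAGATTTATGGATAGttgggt
mt-Atp8, chrM:7870-7909: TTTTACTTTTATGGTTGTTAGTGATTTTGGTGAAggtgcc
mt-Cytb, chrM:14747-14786: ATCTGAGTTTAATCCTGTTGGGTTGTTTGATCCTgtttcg

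On the sense strand the stretches at the highest start positions of mt-Co1 and mt-Atp6 are shown for the same reason. They are given as the mRNA itself on the plus strand, again with the matched bases in capitals.
mt-Co1, chrM:6832-6871: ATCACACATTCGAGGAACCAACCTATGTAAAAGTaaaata
mt-Atp6, chrM:8405-8444: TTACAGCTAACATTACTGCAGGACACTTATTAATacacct

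Every one of the 6 genes had more antisense than sense reads. mt-Co1 (5328 to 6872 of the mitochondrial chromosome, ENSMUSG00000064351.1) had 670275 antisense and 36706 sense reads, an antisense share of 94.8% (95% Clopper-Pearson interval 94.76 to 94.86). mt-Co2 (7013 to 7696, ENSMUSG00000064354.1) had 126219 antisense and 8780 sense reads, or 93.5% antisense (93.36 to 93.63). mt-Co3 (8607 to 9390, ENSMUSG00000064358.1) had only 5909 antisense and 3861 sense reads, or 60.5% (59.5 to 61.45). The 3 genes of complex IV thus differed widely, with mt-Co3 lowest of all 6 in its antisense reads and in its antisense share. mt-Atp6 (7927 to 8607, ENSMUSG00000064357.1) had 301253 antisense and 40768 sense reads, or 88.1% (87.97 to 88.19). mt-Atp8 (7766 to 7969, ENSMUSG00000064356.3) had 23034 antisense and 905 sense reads, or 96.2% (95.97 to 96.46), the highest share of the 6. mt-Cytb (14145 to 15288, ENSMUSG00000064370.1) had 109317 antisense and 21240 sense reads, or 83.7% (83.53 to 83.93). The coding sequences of mt-Atp8 and mt-Atp6 overlap, and 5 antisense and 5 sense reads that lay in both are not in these counts. PCR copies are not independent molecules, so all intervals here describe counting error alone. In a pool of cells, fewer cells with an RNA and less of it per cell cannot be told apart.

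Genes of 50 or more reads were called antisense when the whole interval of the share exceeded 50%. By this rule 6 of 6 genes were called, against 31.7% of 19192 genes counted in the same way. With only those reads that had no equal placement elsewhere, 4 of the 6 genes reached 50 reads and all 4 were called, against 17.5% of 9583 genes. With each start position of such reads counted a single time, 3 genes had enough positions and all 3 were called, against 3.21% of 2210 genes. In that last count mt-Co1 had 201 antisense and 133 sense positions, mt-Atp8 had 91 and 27, and mt-Cytb had 429 and 296.

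Per kb of transcript and 1000000 searched reads (RPKM), the antisense level was 14031 for mt-Atp6 (Poisson 95% interval 13980 to 14081), 13760 for mt-Co1 (13727 to 13793), 5853 for mt-Co2 (5820.5 to 5885.1), 3581 for mt-Atp8 (3535.1 to 3627.7), 3031 for mt-Cytb (3012.8 to 3048.8) and 239 for mt-Co3 (232.99 to 245.22). No neighbours in this order had overlapping intervals. Without the highest start position of each gene the antisense level of mt-Co1 was 6271 RPKM and that of mt-Atp6 12794 RPKM, so that the near equality of the top 2 levels rested on 1 position in mt-Co1. The order of mt-Co2 at 2833, mt-Atp8 at 2471, mt-Cytb at 2194 and mt-Co3 at 219.7 RPKM was kept. The sense level ran in another order, with mt-Atp6 at 1899, mt-Co1 at 753.5, mt-Cytb at 588.9, mt-Co2 at 407.1, mt-Co3 at 156.2 and mt-Atp8 at 140.7 RPKM. The intervals of mt-Co3 (151.31 to 161.2) and mt-Atp8 (131.69 to 150.18) came closest to each other and did not overlap.

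**Figure D1:**
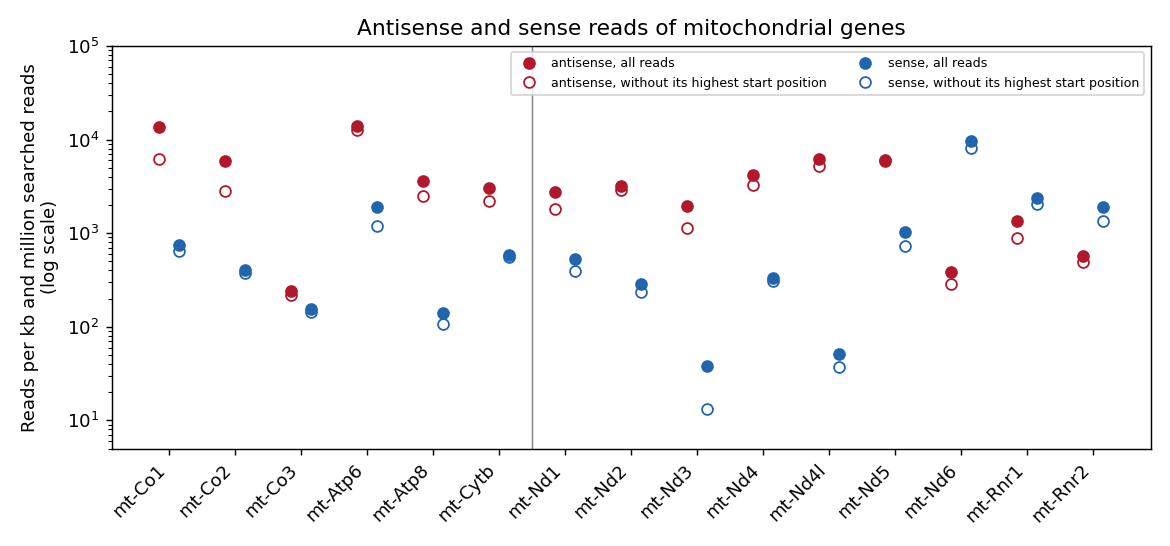
Reads per kb and 1000000 searched reads (log scale) for the 6 genes, left of the grey line, and the other mitochondrial messenger and ribosomal RNA genes, with antisense in red and sense in blue; open circles leave out the highest start position of that strand. mt-Atp6 and mt-Co1 have the highest antisense levels of the 6, at 14031 and 13760, and mt-Co3 the lowest, at 239.

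The antisense lead was smaller by start positions than by reads. For the 6 genes together 91.7% of reads were antisense (91.63 to 91.72), 82.3% of distinct sequences (82.03 to 82.61) and 60.3% of start positions (58.61 to 61.89), with 2106 antisense and 1389 sense positions. Single-gene shares of start positions were 58.5% in mt-Co1, 59.5% in mt-Co2, 56.8% in mt-Co3, 64.7% in mt-Atp6, 77.1% in mt-Atp8 and 59.5% in mt-Cytb, and the lowest interval, that of mt-Co3, was 51.64 to 61.93. Reads were thus stacked more deeply at antisense than at sense positions, and both strands had many of them, with 685 antisense and 487 sense positions in mt-Co1. mt-Co3 was the only one of the 6 in which reads (60.5%), sequences (62.2%) and positions (56.8%) gave nearly the same share.

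**Figure D2:**
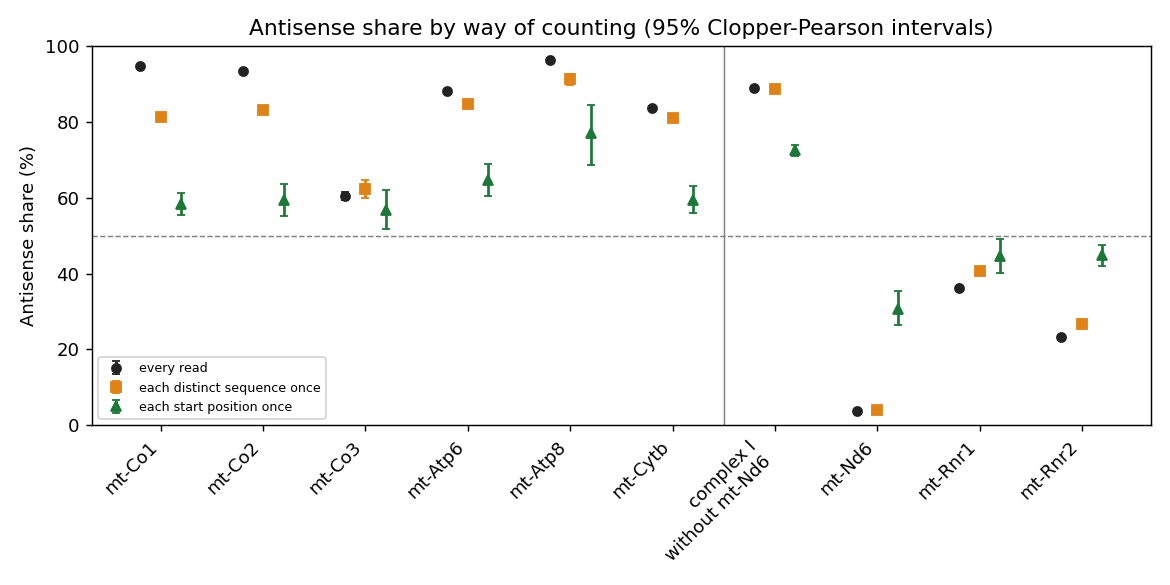
Antisense share in percent by every read, by distinct sequences and by start positions, with 95% Clopper-Pearson intervals and a dashed line at 50%. The 6 genes on the left lie above 50% in all 3 counts, between 56.8% and 77.1% by start positions, while mt-Nd6, mt-Rnr1 and mt-Rnr2 lie below 50%.

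Most reads of the 6 genes could also lie on nuclear copies. Of their reads 327603 had no equal placement elsewhere and 1020664 matched an annotated nuclear gene equally well. The split followed the reference sequence, since all of the 651 windows of 34 bases in mt-Co2 occur exactly on a nuclear transcript, as do 99.9% of those in mt-Co3, 99.5% in mt-Atp6 and 61.2% in mt-Co1, but only 5.85% in mt-Atp8 and 4.32% in mt-Cytb. Accordingly mt-Co2 and mt-Co3 had 0 reads of their own, which the reference all but fixed and which says nothing of their level, and mt-Atp6 had 53 antisense and 8 sense reads of its own. In mt-Co1 75.0% of antisense and 78.1% of sense reads had an equal nuclear placement. In mt-Cytb these shares were 2.38% and 1.07%, and in mt-Atp8 they were 0.00434% and 0%, or 0 of 905 sense reads.

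**Figure D3:**
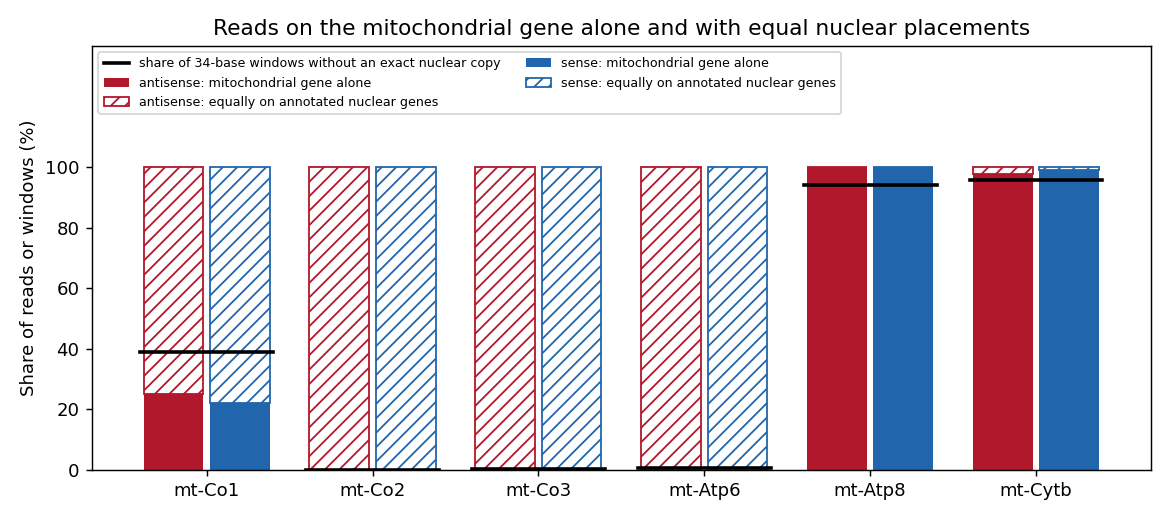
Share of antisense (red) and sense (blue) reads of each gene that lay on it alone (filled) or equally well on annotated nuclear genes (hatched), in percent; black lines give the share of its 34-base windows that have no exact copy on an annotated nuclear transcript. mt-Co2, mt-Co3 and mt-Atp6 are almost wholly hatched, and mt-Atp8 and mt-Cytb almost wholly filled.

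The equal placements fell mainly on a row of 4 unprocessed pseudogenes on the minus strand of chromosome 1 (GRCm38). Gm28437 (24613189 to 24613971) matched mt-Co3, Gm10925 (24613974 to 24614651) matched mt-Atp6, Gm28661 (24614885 to 24615565) matched mt-Co2 and Gm29216 (24615706 to 24616197) matched the downstream part of mt-Co1. No read matched any of these 4 better than the mitochondrial gene, and the 4 shared 446 to 750 windows of 34 bases with their genes, so that RNA from this row and from the organelle cannot be told apart in most of mt-Co2, mt-Co3 and mt-Atp6. The stretch of chromosome 1 between Gm10925 and Gm28661, where a copy of mt-Atp8 would lie in this order, holds no annotated transcript of that row and was not searched. That mt-Atp8 reads matched a single gene thus rests on the annotation.

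Copies that differ more from the mitochondrial sequence could be told apart. Gm13340 on chromosome 2 (22588103 to 22589647) is as long as mt-Co1, at 1545 bases, and 654182 reads matched mt-Co1 better than Gm13340 against 341 that matched Gm13340 better (99.948% for mt-Co1, 99.942 to 99.953). For mt-Co2 and its chromosome 2 copy Gm13341 (22587291 to 22587962) these counts were 126254 and 47. For mt-Cytb and Gm11410 on chromosome 4 (80003989 to 80005131) they were 127730 and 5. In these 3 pairs nearly all reads that distinguish the pair matched the mitochondrial gene. These counts set each gene against that copy alone: 134998 mt-Co2 reads, all but 1, and 497383 mt-Co1 reads still matched the chromosome 1 row equally well. In mt-Co1, reads with an equal placement on Gm29216 began between bases 1067 and 1545, and the upstream part has no counterpart in that row. The antisense share of mt-Co1 from reads of that gene alone was 95.4% (95.33 to 95.53). Of these 167844 antisense reads, 146498 began at base 1012 of the transcript, and by start positions the share was 60.2% (54.71 to 65.47). By reads it was 86.5% (85.89 to 87.04) when no other gene was allowed within 1 further mismatch.

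Within mt-Co1 antisense reads began chiefly at 2 places. Base 1334 of the transcript (6661 of the chromosome) held 364807 reads, 54.4% of the antisense reads of the gene, in 4403 distinct sequences of which the most frequent had 182197 reads. Base 1012 (6339) held another 146651 reads, of which 146498 had no equal nuclear placement. In all of mt-Co1 only 13797 reads had no other gene within 1 further mismatch, so most of these 146498 matched another gene nearly as well. Positions are those of the first matched base of the read, counted from 1 at the start of the transcript, and because reads are complementary to the RNA this base is the 3′ end of the matched RNA on either strand. The bins of 100 bases with these places held 68.2% and 23.2% of the antisense reads, and each of the other bins at most 2.01%. Sense reads of mt-Co1 were spread more evenly, with 10 positions holding 50% of them against 1 position on the antisense strand. The highest sense position, base 1538, lay 7 bases before the end of the transcript and held 5164 reads, or 14.1%.

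mt-Co2 had a similar antisense concentration. Base 249 (7261) held 65120 reads, 51.6% of the antisense reads, and 82.0% lay within 5 bases of it. The neighbouring bases 247 and 248 held 24377 and 9127 reads, so the 3 together form 1 narrow cluster. Sense reads of mt-Co2 had no such place: base 542 was highest with 733 reads, or 8.35%, and 37.9% of sense reads began between bases 401 and 500.

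On the antisense strand mt-Co3 was the flattest of the 6, by the share of its highest position and by the 19 positions that held 50% of its reads. Its highest antisense position, base 87 (8693), held 478 reads, or 8.09%, and its highest sense position, base 170, held 294 reads, or 7.61%. Antisense reads were most frequent in bases 1 to 200, with 24.1% and 22.7% in the 2 bins, and sense reads in bases 701 to 784, with 27.8%.

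mt-Atp6 had most of its antisense and most of its sense reads in different parts of the gene. Bases 1 to 400 held 24709, 70362, 116772 and 84592 antisense reads per bin of 100, and bases 501 to 600 held 160. Bases 501 to 600 in turn held 35314 sense reads, 86.6% of the sense total. By reads the 2 strands of mt-Atp6 thus lay largely in separate stretches. By positions they overlapped, since 88 of the 189 sense start positions were also antisense start positions. The highest antisense position, base 292 (8218), held 26553 reads, only 8.81%, and 14 positions were needed to reach 50% of the antisense reads. The highest sense position, base 512 (8438), held 15402 reads, or 37.8%, and 77.1% of the sense reads lay within 5 bases of it. Of the antisense reads that fit inside the transcript, 62 began in bases 601 to 681, next to mt-Co3. Antisense reads that begin closer to the end than their own length run past the transcript and are not in this count. On the mitochondrial transcripts joined at their coordinates, 1919 antisense reads ran from mt-Atp6 into mt-Co3.

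mt-Atp8, the shortest of the 6 at 204 bases, had 95.4% of its antisense reads in bases 101 to 200. Base 111 (7876) held 7143 antisense reads, or 31.0%, and base 132 held 4257. The highest sense position, base 146, held 217 of 905 reads.

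In mt-Cytb base 609 (14753) held 30189 antisense reads, or 27.6%, and 51.6% lay within 5 bases of it. Bases 601 to 700 held 60.3% of the antisense and 5.57% of the sense reads, while bases 901 to 1000 held 4.40% of the antisense and 34.5% of the sense reads. The highest sense position, base 950, held 1297 reads, or 6.11%. As in mt-Co1 and mt-Co2, the sense strand was the flatter one by the share of its highest position. In mt-Atp6 the antisense strand was the flatter one.

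**Figure D4:**
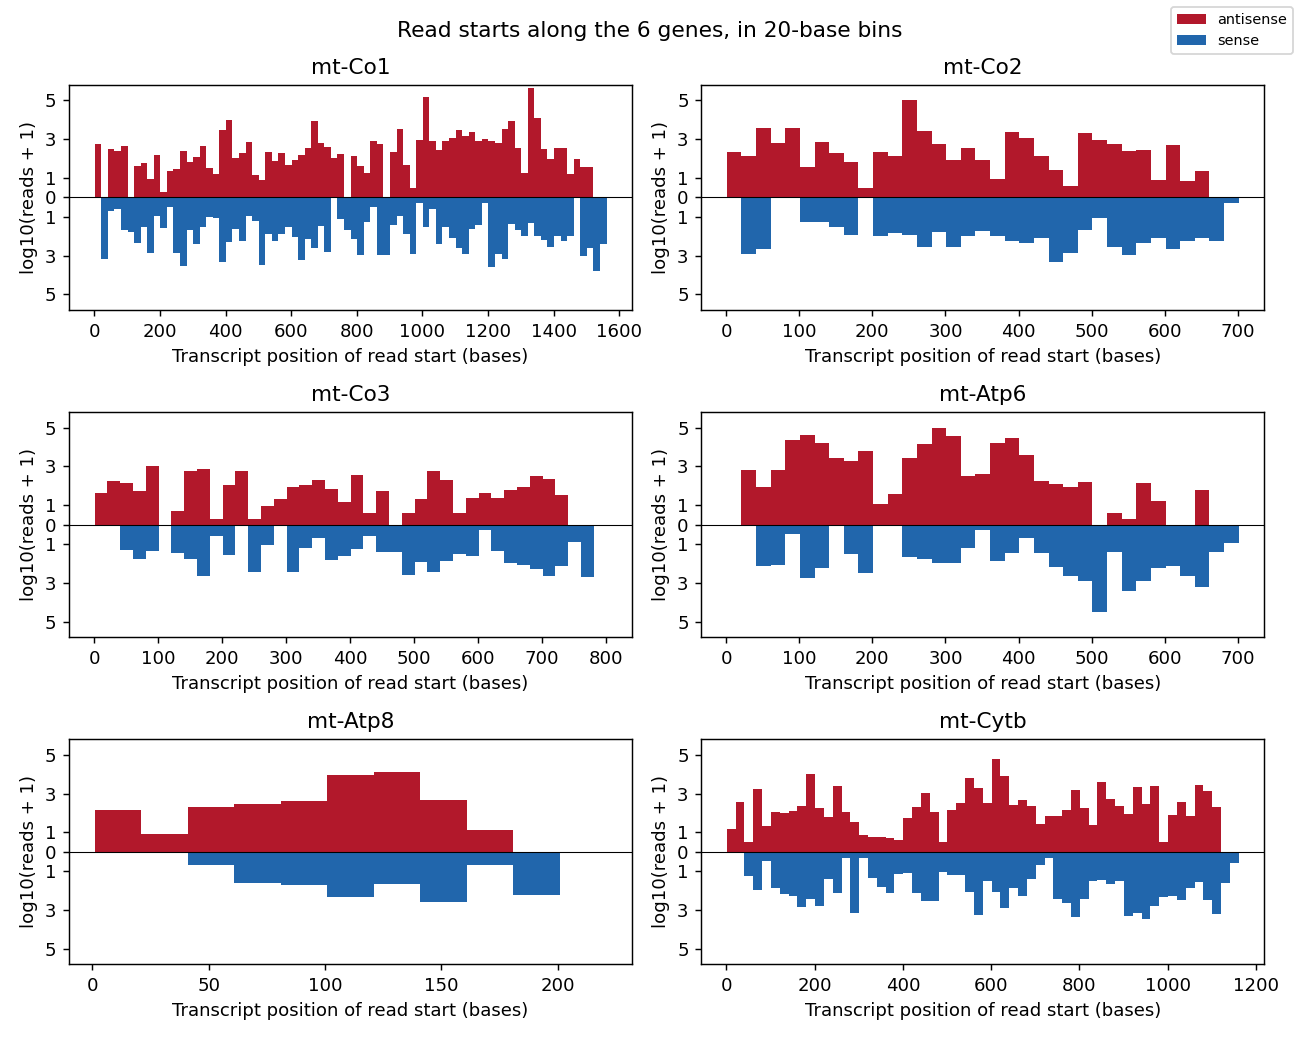
Reads by transcript position of their start in bins of 20 bases, as log10(reads + 1), with antisense upward in red and sense downward in blue. The highest 2 antisense bars hold bases 1334 and 1012 of mt-Co1, followed by the bar with base 249 of mt-Co2, and in mt-Atp6 antisense bars are high up to about base 400 and sense bars highest near base 512.

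In the places with most reads, the 6 leading bases of the read, which were left out of the matching, often differed from the reference. They equalled the reference in 54.7% of the antisense reads at base 1334 of mt-Co1, 56.4% at base 249 of mt-Co2, 71.1% at base 87 of mt-Co3, 34.5% at base 292 of mt-Atp6, 78.0% at base 111 of mt-Atp8 and 51.0% at base 609 of mt-Cytb. For the sense strand the shares were 83.1% at base 1538 of mt-Co1, 94.8% in mt-Co2, 81.3% in mt-Co3, 37.5% at base 512 of mt-Atp6, 95.4% in mt-Atp8 and 91.1% in mt-Cytb. The part of this in the antisense counts was not tested.

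Reads across the borders of the genes were counted on the mitochondrial transcripts joined at their coordinates, with at least 3 bases on each side, at the 6 borders where neighbouring transcripts touch or overlap. At the downstream end of mt-Co3, where the glycine tRNA gene mt-Tg begins at once, 1092 antisense reads crossed and 0 sense reads did. A count of 0 does not exclude a low level of such RNA. The median over inner bases of mt-Co3 was 106 antisense and 81 sense reads, and 2.05% of inner bases also had no sense read across them. At the start of mt-Co3, which follows mt-Atp6 with no tRNA between, 1919 antisense and 81 sense reads crossed. No inner base of mt-Co3 had more antisense reads than this border, and the sense reads equalled the inner median. At the end of mt-Cytb, before the threonine tRNA gene mt-Tt, 16 antisense and 6 sense reads crossed, against inner medians of 259 and 195. Coverage inside mt-Cytb was uneven, and 11.4% of its inner bases had no more antisense reads and 6.23% no more sense reads than this border. At the end of mt-Co1, where the serine tRNA gene mt-Ts1 lies on the other strand, 194 antisense and 2184 sense reads crossed, against medians of 339 and 176 inside, and 92.8% of inner bases had no more sense reads than this border. In human mitochondria the mRNA of this gene is known to run on through the region opposite that tRNA. The annotated mt-Atp8 and mt-Atp6, which share an mRNA in mammals, overlap by more bases than the matched part of a read. Across the start of mt-Atp6 6637 antisense and 163 sense reads were counted, which lie inside mt-Atp8. Across the end of mt-Atp8 there were 758 and 257, which lie inside mt-Atp6. Neither count can link the 2 genes. Reads with an equal placement on an annotated nuclear gene were kept in these counts. Those across the end of mt-Atp8 lie in mt-Atp6, of whose 34-base windows 99.5% occur on Gm10925. Nuclear sequence outside annotated transcripts could hold the same borders and was not searched.

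**Figure D5:**
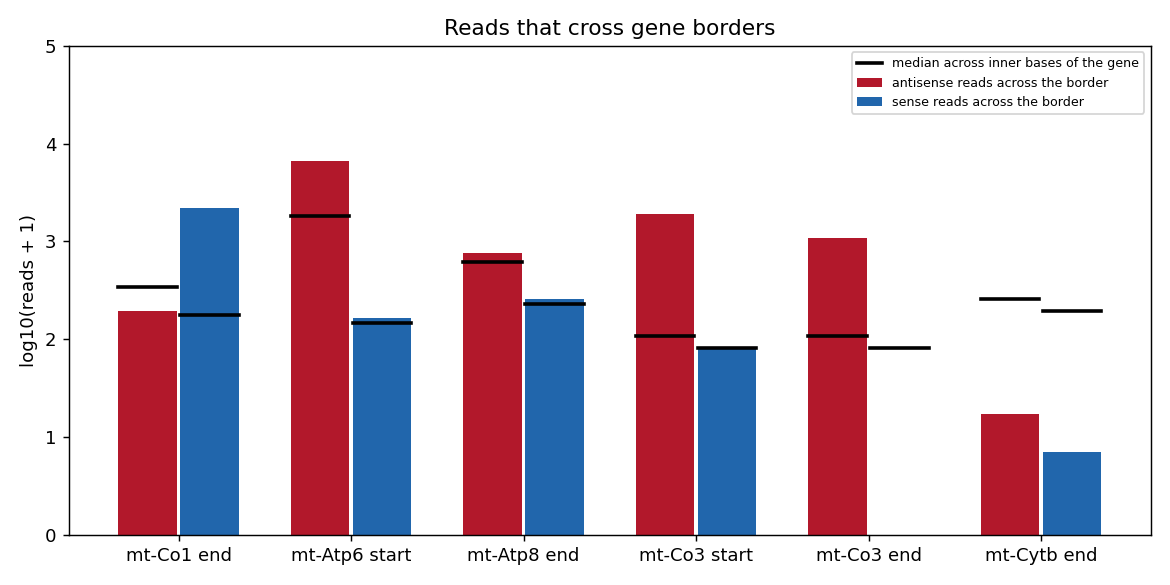
Reads that cross each gene border by at least 3 bases on both sides, as log10(reads + 1), antisense in red and sense in blue, with black lines at the median across inner bases of the named gene. No sense bar stands at the end of mt-Co3, where 1092 antisense reads crossed, and the sense bar at the end of mt-Co1, 2184 reads, lies above its line.

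The reads matched the reference closely. Over bases with at least 100 reads, mismatching bases were 0.266% of those in mt-Co1, 0.234% in mt-Co2, 0.265% in mt-Co3, 0.167% in mt-Atp6, 0.167% in mt-Atp8 and 0.266% in mt-Cytb. Only 1 base differed in most reads when bases within 5 of a read end were left out. It was A979G in mt-Cytb (the reference base, the position counted from 1 at the first base of the transcript, then the read base, on the plus strand, at 15123 of the chromosome), carried by 2081 of 2846 reads, or 73.1% (71.45 to 74.74), in 328 sequences at 23 start positions. By strand it was in 75.9% of antisense reads (1989 of 2622) and in 41.1% of sense reads (92 of 224). By read length it was in 72.2% of 40-base reads and 84.6% of 36-base reads. The 4 bases of mt-Co1 that differed in most reads, G46A, A48T, G905A and A906T, had the change in 0 reads in which the base lay at least 5 bases from both ends, out of 9, 7, 4 and 4 such reads. The strain label names M.castaneus and 129 and does not say which mitochondrial genome the cells carry.

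An antisense lead was also present in other mitochondrial genes, and mt-Co3 lay low among them. The 6 complex I genes on the plus strand had 796986 antisense and 100324 sense reads together, 88.8% antisense (88.75 to 88.88), with antisense levels between 1942 RPKM in mt-Nd3 and 6140 RPKM in mt-Nd4l. mt-Co3 at 239 RPKM was below all of these, and mt-Atp6 and mt-Co1 were above all of them. With its highest position left out mt-Co1 had 6271 RPKM, just above mt-Nd4l. Of the 305468 antisense reads then left in mt-Co1, 146651 began at base 1012, so its place rested on these 2 positions. By start positions, the 6 genes had 60.3% antisense and those complex I genes 72.5% (71.08 to 73.85). mt-Nd6, which is annotated on the minus strand, had 3.81% antisense reads, so that its RNA was mostly of the same strand as the antisense reads of the 6 genes. Antisense reads were 36.1% in mt-Rnr1 and 23.2% in mt-Rnr2, the ribosomal RNA genes. A removal of ribosomal reads before deposit could have changed both shares and was not tested. By the antisense share of start positions the genes most like mt-Co1 were mt-Co2 and mt-Cytb, within 1.02 and 1.06 percentage points. mt-Atp6 lay nearest to mt-Nd1, 0.51 points away, and mt-Atp8 to mt-Nd4l, 0.78 points away. This likeness is over a single table and is a description.

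Nuclear-encoded partners of the same complexes had more sense than antisense reads in sum, by a margin that depended on how reads with several placements were counted. Of 34 listed nuclear subunits of complexes III, IV and V, 17 had at least 50 sense reads of 1 gene, and the 34 had 1052 antisense and 26621 sense reads of 1 gene, or 3.80% antisense. Counted by any best placement, as the 6 mitochondrial genes were, they had 22297 antisense and 78438 sense reads, or 22.1% antisense. Of these, Atp5g1 held 2472 antisense and 45545 sense reads and Atp5a1 held 48 and 21806. The sense lead of the sum rested on these genes, and the other listed genes together had more antisense than sense reads. In that count some genes had mainly antisense reads, chosen here after their values were seen, among them Cox4i1 with 5860 antisense and 424 sense reads and Atp5l with 8155 and 2917. The median sense level of 1-gene reads was 0.844 RPKM. By 1-gene reads Atp5a1, the alpha subunit of the ATP synthase, had 48 antisense and 21805 sense reads, most of the total of the list. Atp5c1, its gamma subunit, had 5 and 1378, and Atp5b, its beta subunit, had 168 and 739. The direction turned for Atp5b by any best placement, with 2232 antisense and 957 sense reads. Of these 34 genes 18 reached 50 reads and 2 of the 18 were called antisense, against 17.5% of all genes, and by any best placement 6 of 23 were, against 31.7%. Of 15 annotated genes for mitochondrial RNA synthesis, processing and decay, 9 had at least 50 sense reads, led by Tfam, which packages mitochondrial DNA, with 462, Lrpprc, which stabilises mitochondrial mRNAs, with 383, and Pnpt1, a subunit of the mitochondrial RNA-degrading complex, with 142. In this list 1 of 9 genes was called antisense, and 2 of 12 by any best placement. Many of these families have processed pseudogenes, so both counts are uncertain for their members.

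The table holds 34072479 reads of 6540936 sequences, 24772940 of them 40 bases and 6252281 of them 36 bases long. Of the reads of the 6 genes, 36-base reads were 2.38% to 4.79% of the antisense and 3.65% to 11.5% of the sense reads, and the antisense share of the 6 together was 92.0% in 40-base reads (91.99 to 92.08) and 85.0% in 36-base reads (84.73 to 85.32). In all 6 genes the share lay above 50% at both read lengths. Of 12 embryonic stem cell markers 11 had 50 sense reads of 1 gene or more, 103683 in sum, and all 5 fibroblast markers did, 14570 in sum. Lefty2 with 66761 and L1td1 with 29927 gave most of the first sum. The median sense level ran the other way, at 5.52 RPKM for the stem cell markers and 18.2 RPKM for the fibroblast markers. The part of other cells in the counts of the 6 genes was not tested.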

How the data were processed

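Per the labels' protocols, RNA recovered with antibody from nuclear lysates was made into cDNA by template switching. The table deposited by the authors gives, without a header, a raw read count for each distinct sequence. How reads were filtered, and the aligner, are not given in the sources used here; the submitters' processing notes name the build mm9, and no coordinates were converted. The values are 1 pool with no SD, and 0 columns of other samples were left out.

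From each read of at least 26 bases the leading 6 were dropped and the rest matched with bwa 0.7.19 to GENCODE M21 transcripts (GRCm38), with up to 2 mismatches, no gaps and up to 1000 listed placements. Orientation is given for the RNA, to which the reads are complementary. RPKM was computed from the deposited counts per kb of transcript and 1000000 searched reads. Of 12000 simulated reads of the 6 genes, 98.5% returned to their gene and strand and 0% to a wrong one, and of 6000 simulated reads of annotated nuclear copies, 42.2% were counted on a gene equally and 0.0333% alone. Intervals are exact, from scipy 1.17.1. Named nuclear copies are those with most equally placed reads, named list genes those with most sense reads, and likeness is that in antisense share of start positions. The genes, lists and alternatives were chosen with earlier results of these data known. Nuclear genome sequence outside annotated transcripts was not used here. The planned test between antibodies was not made, since no column is tied to a library.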

Additional observations from a re-analysis of the deposited data

Results flagged for a closer look

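Reads of 20 to 25 bases are not in the comparisons above. Matched whole and without a mismatch, 11809 of the 1356067 such reads lay on the 6 genes, 11434 antisense and 375 sense, where the same sequences reversed but not complemented, as a control, gave 0. These matches were looked for after the data had been seen, and other transcripts were not searched for them. mt-Co2 had 9410 of the antisense reads in 13 sequences, mt-Cytb 980, mt-Co1 610, mt-Atp6 416 and mt-Atp8 18, while mt-Co3 had 0 antisense and 1 sense read. The most frequent in mt-Co2 had 2967 reads and covers 22 bases, chrM:7071-7092 (GRCm38), shown on the plus strand, which is the read and not the antisense RNA: TAATAAATTTCCATGATCACAC. It does not overlap the stretch of mt-Co2 with most longer antisense reads, chrM:7255-7294.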

How the results depend on the processing

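For the 6 genes and their sum, the antisense share lay above 50% under all alternatives that gave a value: reads of 1 gene, distinct sequences, start positions, the highest position left out, 0 or 1 mismatch, 30 bases or more, either read length, 0 or 8 leading bases dropped, no other gene within 1 further mismatch, and, added after seeing the data, the mitochondrial transcripts joined. Reads of 1 gene, and no other gene within 1 further mismatch, gave mt-Co2 and mt-Co3 no value. The reference held no whole mitochondrial chromosome, so that search was not run.

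Counting each sequence a single time left 21365 counts for mt-Co1, 8522 for mt-Co2, 1671 for mt-Co3, 21881 for mt-Atp6, 1602 for mt-Atp8 and 12001 for mt-Cytb. With no other gene within 1 further mismatch 13797 reads were left for mt-Co1, 0 for mt-Co2 and mt-Co3, and 61 for mt-Atp6. The share with equal nuclear placements in mt-Co1 was 74.5% without mismatches, 75.5% in 40-base and 66.4% in 36-base reads. In 36-base reads it was 99.96% in mt-Atp6. In mt-Atp8 it was 0% without mismatches and 0% in 36-base reads. In mt-Cytb it was 2.01% in 40-base and 3.51% in 36-base reads. The number of all genes called antisense was 1675, and 529 at a minimum of 200 reads and 71 by start positions. Fewer genes were tested in both, 3863 and 2210 against 9583, and the share called also fell, to 13.7% and 3.21% against 17.5%; the cause was not tested. For the list of nuclear subunits the antisense share was 3.80% by reads of 1 gene and 22.1% by any best placement, a count added after seeing the data. Shares at the highest position were lower by distinct sequences in all 6 genes on both strands, 25.3% for antisense mt-Co1. No paired analysis was possible because no column carries a replicate number. Depth limits mt-Atp8 sense (905 reads) most.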
